A study of Mus musculus with 16 samples.

Results

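The interaction of exercise and anti-PD-L1 was measured gene by gene as a difference of differences, namely the exercise difference among antibody-treated tumours minus the exercise difference among tumours without the antibody. All 16 of the 16 libraries in the study enter this contrast, 4 from control tumours, 4 from tumours labelled exercise, 4 labelled anti-PDL1, and 4 labelled exercise with anti-PDL1, which is the combination below. Each library holds total RNA of a tumour grown by grafting MC38 cells, a mouse colon carcinoma line, under the skin. The strain, sex and age of the mice, the exercise programme, the antibody clone and dose, any control antibody and the time of sampling are not stated in the labels. The antibody is anti-PDL1 in the labels, which are followed, although the title of the series names PD-1. The labels do not tie libraries to animals, so every p-value below reflects the spread between libraries, and that spread may be technical. By the series title, the study asked whether exercise changes what blockade of this pathway does in colorectal tumours, and the interaction is the contrast of the design that compares the exercise difference with and without the antibody.

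PD-L1 is a ligand of PD-1, an inhibitory receptor of activated T cells, and antibodies against either free T cells that recognise the tumour to release interferon gamma and cytotoxic granules. Interferons switch on antiviral GTPases and antigen presentation in the tumour cells they reach. Tumour cells that divide need DNA replication, mitosis and new membrane, and the sterol of that membrane comes from uptake or from the mevalonate pathway, whose genes are driven by the transcription factor SREBP2. A gene has no interaction on the scale used here when both single differences simply add in the combination.

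Values are FPKM, a fragment count corrected for transcript length and library size, taken as log2(FPKM + 1). An interaction of 1 means that the exercise difference was 1 log2 unit higher with the antibody than without it, and a negative value means that it was lower. The additive expectation of a gene is the level that the combination would have with an interaction of 0, and it is set beside the observed level, the back-transformed mean of the combination libraries. This scale understates differences of genes with low values.

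The labelled tissue was checked against markers before the results. Krt8, Krt18, Krt20 and Epcam, epithelial genes of the colon, stayed between 0 and 0.26 FPKM in all 16 libraries, while Vim, a mesenchymal filament gene, lay between 2083 and 3768 FPKM. Cdh1, E-cadherin, lay between 1.24 and 3.05 FPKM and Krt19, a further keratin of simple epithelia, between 0.04 and 4.87 FPKM, so these 2 were not near 0 in every library. T cell genes were scarce, with Cd3e between 0.07 and 1.00 FPKM and Cd8a between 0.12 and 2.23 FPKM. In such bulk samples, fewer cells of a type and less RNA per cell cannot be told apart.

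One library stood apart from its group in much of what follows. Exercise 1 had the highest mean log2(FPKM + 1) of all 16 libraries over the sterol list (4.99) and over the mitosis list (5.68), and the lowest over the type I interferon list (2.19) and the hypoxia list (4.12). In each of these lists it lay beyond the range of the controls, in the direction away from the other exercise libraries. Over all tested genes, too, exercise 1 lay further from exercise 2 to 4 than these lay from each other. It correlated with them between 0.974 and 0.977, and they correlated with each other between 0.985 and 0.989. Pairs of the same group ranged from 0.957 to 0.989 over all groups. With controls its correlations were 0.966 to 0.986, and those with controls 3 and 4 (0.985 and 0.986) exceeded those with its own group. On the second principal component (17.3% of the variance) exercise 1 scored -1.02, and exercise 2 to 4 scored -24.1, -17.1 and -25.9. The library weight that limma estimated was 0.507 for exercise 1 and lowest for anti-PDL1 4 (0.417). Controls 1 and 2 scored 30.8 and 41.4 on the leading principal component (30.1% of the variance) and stood apart there. Results are therefore given with all 16 libraries and, where it matters, without exercise 1 or without those controls.

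No gene passed the threshold. In limma's empirical Bayes test, 0 of 11868 tested genes (0%) had an interaction with an adjusted p under 0.05, and the smallest adjusted p was 0.364. At an unadjusted p under 0.05 there were 1554 genes (13.1%), of which 948 (7.99%) lay above 0 and 606 (5.11%) below 0. With quantile normalization, 807 lay above 0 and 839 below 0, so the excess of positive interactions depends on the scaling between libraries. The median interaction of all tested genes was 0.03, with 5% of genes under -0.51 and 5% over 0.61, and the median standard error was 0.18. Of all tested genes, 6511 (54.9%) lay above 0 and 5357 below 0. Counts of list members on either side of 0 are to be read against these. The sign was the same in all 16 fits that left out a library for 8882 genes. A p that misses the threshold does not show that the values did not differ.

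Leaving out exercise 1 was the only one of the 16 single omissions that gave any call. The 15 remaining libraries had 223 genes past the adjusted threshold (1.88%), 195 above 0 (1.64%) and 28 below 0 (0.236%). Among them were 13 of 23 tested sterol genes and 14 of 26 mitosis genes, and these counts are given below with those of all 16 libraries. Exercise 1 was singled out by its values in these same lists. The adjusted p-values without it do not allow for that choice, so they are descriptive here and below and are not evidence of an interaction. In the fit of all libraries the contrasts of exercise against control, of the combination against anti-PDL1 and of the combination against exercise each had 0 genes (0%), and anti-PDL1 against control had 30 (0.253%).

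**Figure D1:**
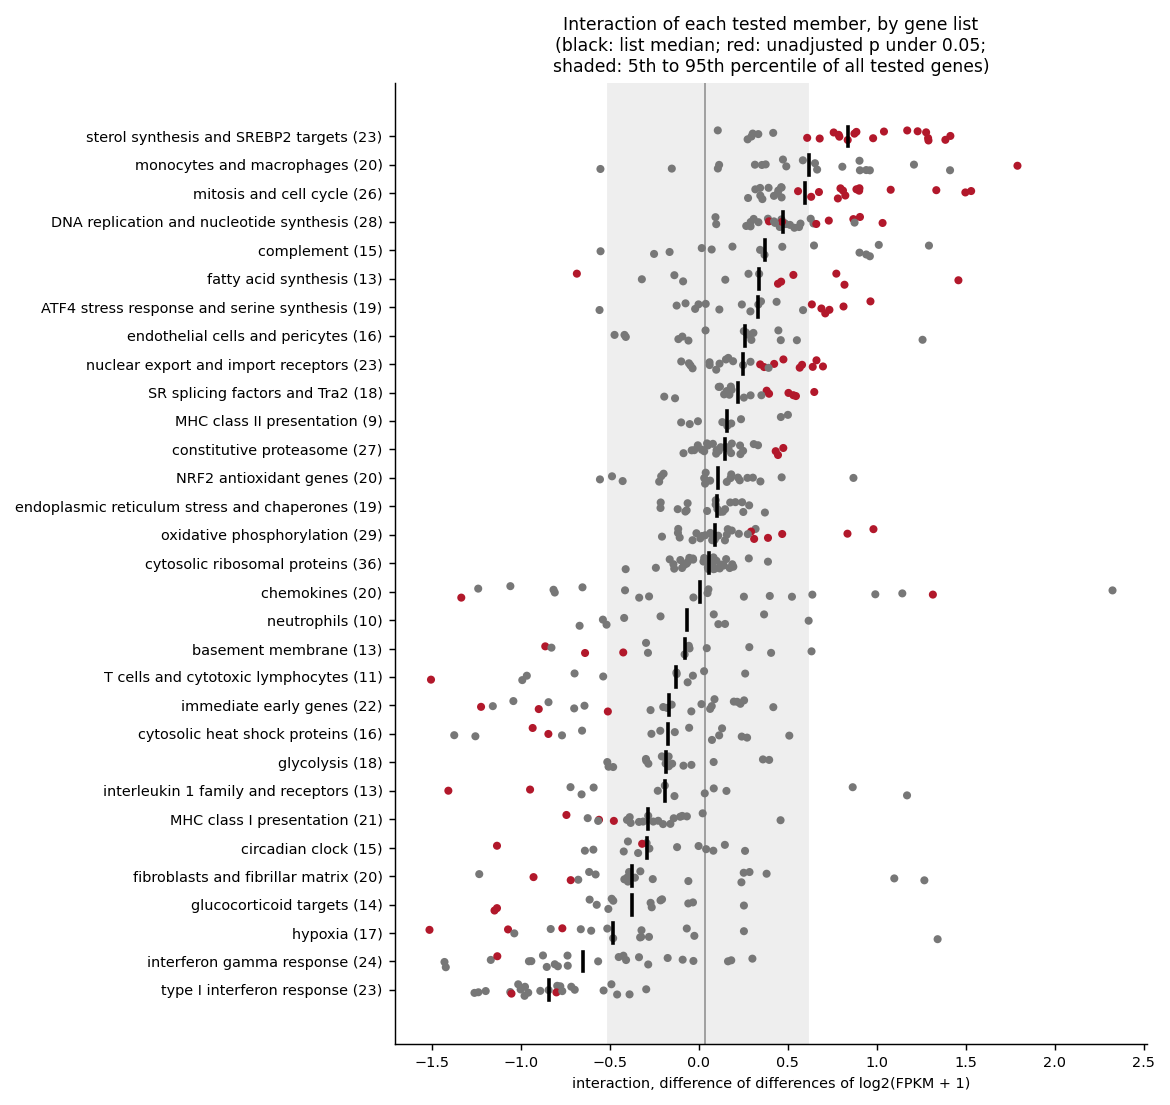
Interaction of each tested member of the gene lists with at least 9 tested members, in log2 units on the horizontal axis, with the number of tested members in brackets. Black bars are list medians, red points have an unadjusted p under 0.05, and the shaded band holds the range from -0.51 to 0.61 between the 5th and 95th percentiles of all tested genes. Sterol synthesis lies at the top with a median of 0.84 and type I interferon at the bottom with -0.84.

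Sterol synthesis genes had the highest median interaction of the lists with at least 9 tested members. All 23 tested members of 24 lay above 0, from 0.11 to 1.41 with a median of 0.84, against a median of 0.03 for all tested genes. An unadjusted p under 0.05 was reached by 17 of them above 0 and by none below 0, against 7.99% of all genes above 0. Without the antibody, the exercise libraries were lower than the controls by a list median of -0.26. With it, the combination was higher than anti-PDL1 alone by a median of 0.65. The antibody difference was -0.81 without exercise and -0.01 with it, the latter against an exercise group that includes exercise 1. List means were 4.22 to 4.63 in combination libraries, 4.21 to 4.25 in exercise 2 to 4, and 4.99 in exercise 1. The antibody libraries lay lower, at 3.60 to 4.16. Without exercise 1 the median was 1.07.

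The promoters of these genes are shown as a description only. The list was drawn up as sterol genes and SREBP2 targets, so its promoter letters are not independent of that choice. Windows were counted by list membership without use of the interactions, here and for the mitosis and interferon lists below. The counts therefore do not bear on the interactions. SREBP2 is known to act with the factor NF-Y, which binds the letters CCAAT. In the RefSeq promoter table of GRCm38.p6, 16 of the 23 tested sterol genes had an entry, and all 16 held CCAAT on either strand in the 250 bases before the gene start, against 41% of 9338 tested genes and 37.5% of 27025 genes in the table. The windows of 3 members follow, 5′ to 3′ on the strand of the gene, with CCAAT or its reverse complement ATTGG in capitals. Cyp51 is at chr5:4104698-4104947 on the minus strand, Idi1 at chr13:8885356-8885605 on the plus strand and Hmgcs1 at chr13:119690101-119690350 on the plus strand.
Cyp51: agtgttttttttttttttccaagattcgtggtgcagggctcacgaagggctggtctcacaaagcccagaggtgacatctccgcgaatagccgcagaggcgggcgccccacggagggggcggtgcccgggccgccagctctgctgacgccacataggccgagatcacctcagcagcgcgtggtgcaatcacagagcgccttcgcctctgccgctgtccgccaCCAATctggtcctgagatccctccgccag
Idi1: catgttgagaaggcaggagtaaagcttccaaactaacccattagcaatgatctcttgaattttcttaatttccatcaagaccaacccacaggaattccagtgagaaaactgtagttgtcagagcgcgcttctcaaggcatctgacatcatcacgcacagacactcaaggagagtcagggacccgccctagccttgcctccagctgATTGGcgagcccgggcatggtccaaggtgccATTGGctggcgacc
Hmgcs1: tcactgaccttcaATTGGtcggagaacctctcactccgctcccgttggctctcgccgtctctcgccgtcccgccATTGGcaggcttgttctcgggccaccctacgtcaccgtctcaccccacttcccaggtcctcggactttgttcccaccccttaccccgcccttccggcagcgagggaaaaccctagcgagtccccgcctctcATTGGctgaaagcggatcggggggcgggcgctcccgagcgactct
The match in Cyp51 begins 29 bases before the gene start, the matches in Idi1 begin 45 and 14 bases before it, and those in Hmgcs1 237, 176 and 45 bases before it. The letters TCACNCCAC, a form of the sterol regulatory element that SREBP proteins bind, were found on either strand in 1 of the 16 windows, that of Hmgcs1, against 1.22% of all genes in the table. A match is a description of the letters and not of binding.

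Hmgcs1 is an early enzyme of the mevalonate pathway and lies at chr13:119690351-119708260. Controls 1 to 4 held 60.8, 74.9, 54.6 and 59.3 FPKM, exercise 1 to 4 held 89.0, 32.7, 38.6 and 37.8, anti-PDL1 1 to 4 held 41.5, 24.5, 30.7 and 23.1, and combination 1 to 4 held 43.0, 57.1, 58.5 and 74.6. Every combination library was above every antibody library, while exercise 2, 3 and 4 were below every control and exercise 1 was above them all. The interaction was 1.39 ± 0.38 (SE), with a 95% interval from 0.58 to 2.19 and an unadjusted limma p of 0.0023. An additive expectation of 21.3 FPKM stood against an observed 57.2. Without exercise 1 the interaction was 1.70 with an adjusted p of 0.00928.

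Idi1, which makes the activated isoprene unit at chr13:8885606-8892396, had the largest value of the list. Controls held 9.22, 9.60, 9.27 and 4.22 FPKM, exercise libraries 9.36, 3.83, 3.90 and 4.63, antibody libraries 3.46, 1.88, 1.87 and 1.12, and combination libraries 3.99, 4.41, 4.04 and 5.89. The combination did not overlap with the antibody group and overlapped with exercise 2 to 4, and control 4 lay among these too. Its interaction was 1.41 ± 0.39 and 1.67 without exercise 1 (adjusted p of 0.0296 in limma).

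Sqle, the epoxidase that commits squalene to sterols (chr15:59315092-59331193), again had its lowest values with the antibody alone. Controls held 55.3, 60.1, 53.0 and 46.4 FPKM, exercise libraries 64.2, 31.4, 31.7 and 29.5, antibody libraries 30.8, 20.9, 31.1 and 20.8, and combination libraries 32.5, 42.9, 42.2 and 54.7. Exercise 2 to 4 and the antibody libraries overlapped, and every combination library lay above both. The interaction was 1.23 ± 0.31, and without exercise 1 it was 1.49 (adjusted p of 0.00928).

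Cyp51, the demethylase that turns lanosterol towards cholesterol (chr5:4080674-4104697), held 41.2, 45.9, 39.2 and 30.5 FPKM in controls and 42.2, 25.5, 25.2 and 24.3 in exercise libraries. It held 23.5, 15.4, 18.8 and 12.4 in antibody libraries and 23.8, 22.7, 34.1 and 39.2 in combination libraries. Here the combination and antibody groups overlapped, since antibody 1 was above combination 2. The interaction was 1.17 ± 0.31 against an additive expectation of 12.4 FPKM and an observed 29.2, and without exercise 1 it was 1.36 (adjusted p of 0.0328).

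Other enzymes of the path had interactions of 1.29 for Fdps, which makes farnesyl diphosphate, and 1.28 for Msmo1, which removes methyl groups from the sterol ring. Insig1, which holds SREBP2 back when sterol is plentiful, had 0.68, and Stard4, a sterol carrier, 0.84. The gene of SREBP2 itself, Srebf2, had 0.33 and did not reach an unadjusted p of 0.05. Ebp, a sterol isomerase, had the lowest value of the list at 0.11. Without exercise 1, Msmo1 and Fdps passed the adjusted threshold, while Insig1 (adjusted p of 0.0881) did not.

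**Figure D2:**
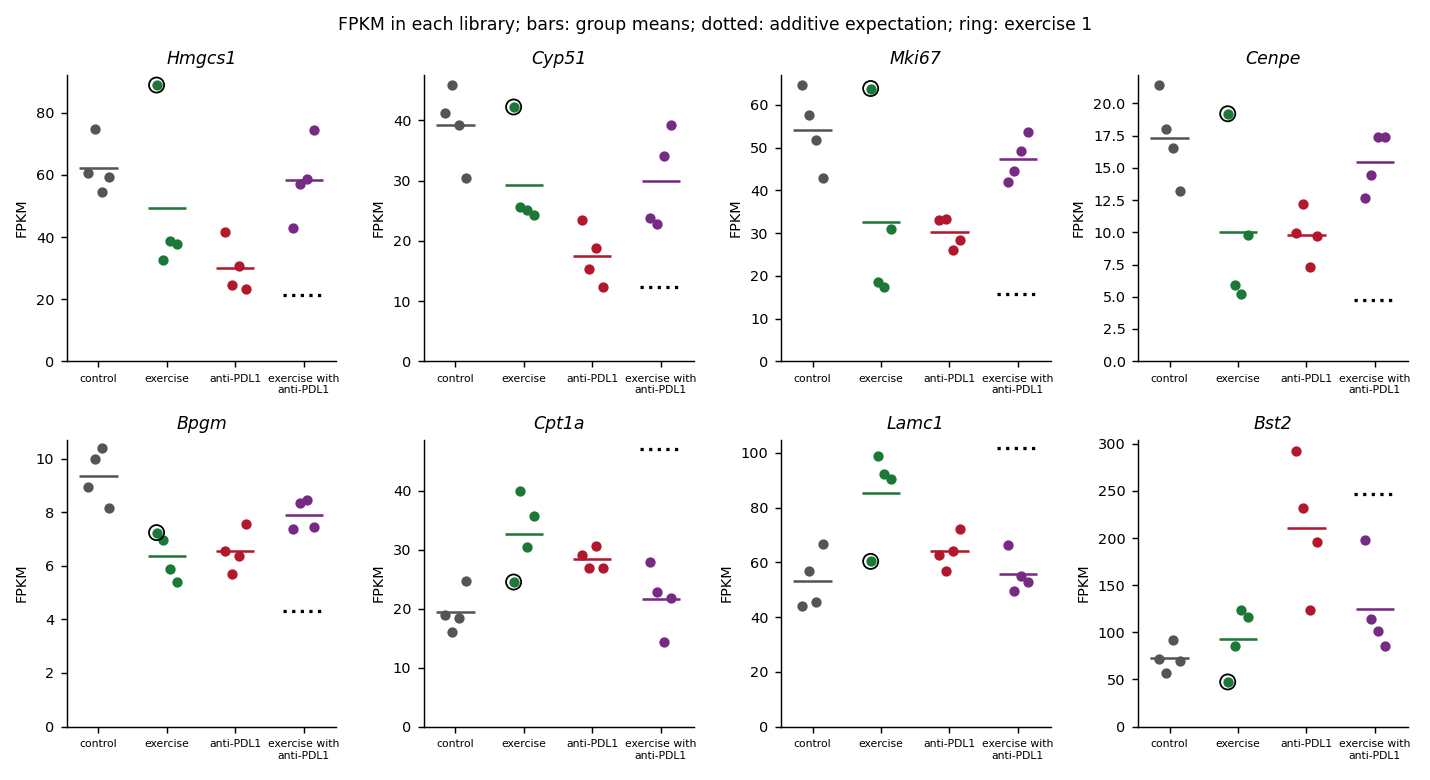
FPKM of 8 genes in each library by group, each panel with its own vertical axis from 0. Points are libraries, coloured bars are group means, dotted bars are the additive expectation for the combination, and the ring marks exercise 1. Observed combination levels of Hmgcs1, Cyp51, Mki67, Cenpe and Bpgm stand above the dotted bar, and those of Cpt1a, Lamc1 and Bst2 below it.

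Fatty acid synthesis genes were divided. Of 13 tested members of 14, 9 lay above 0 and 4 below 0, with a median of 0.34, and 6 above and 1 below had an unadjusted p under 0.05, against 7.99% and 5.11% of all genes. The median was 0.21 without anti-PDL1 4. Elovl6, which extends palmitate (chr3:129532386-129638495), was among the 12 smallest p-values above 0, with an interaction of 1.46 ± 0.37. It held 16.03, 16.8, 12.3 and 10.8 FPKM in controls, 13.1, 5.70, 5.99 and 6.06 in exercise libraries, 7.09, 5.41, 5.72 and 2.84 in antibody libraries, and 5.76, 8.51, 9.95 and 9.65 in combination libraries. Exercise 1 was with the controls and the remaining exercise libraries with the antibody group, while combination 2 to 4 were above the antibody group and exercise 2 to 4 and below all controls, and combination 1 lay among the former. Without exercise 1 the interaction was 1.72 (adjusted p of 0.0201).

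The desaturases split. Fads2, which desaturates polyunsaturated fatty acids, had 0.82 ± 0.31 and Scd2 had 0.45 ± 0.16, whereas Scd1, the paralog of Scd2 in the same chromosome region, had -0.69 ± 0.26. Scd1 means were 35.1 ± 7.75 FPKM (SD, n = 4) in controls, 45.7 ± 7.17 in exercise, 50.2 ± 13.7 in anti-PDL1 and 39.7 ± 5.69 in the combination. Scd2 means were 82.5, 71.9, 60.5 and 71.2 FPKM in the same order, so its mean was lowest in the group where that of Scd1 was highest. For Scd1 that place leans on anti-PDL1 4. Anti-PDL1 1 to 4 held 52.0, 37.3, 42.9 and 68.7 FPKM, and exercise 1 to 4 held 35.5, 46.5, 51.8 and 49.1. Fasn, the synthase, had 0.77 and Acaca, the carboxylase ahead of it, 0.53, while Srebf1, the gene of the factor SREBP1, had -0.32. Elovl6 was the only member past the adjusted threshold without exercise 1.

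Cpt1a and Acadl, genes of fatty acid oxidation, were chosen as 2 of the 12 smallest p-values below 0, so that choice set their sign. Cpt1a, which carries long-chain fatty acids into mitochondria for oxidation (chr19:3322326-3385735), had an interaction of -1.12 ± 0.25, with a 95% interval from -1.65 to -0.58 and an unadjusted limma p of 0.000434. Controls held 18.9, 16, 18.5 and 24.7 FPKM, exercise libraries 24.5, 40.0, 30.4 and 35.8, antibody libraries 29.1, 26.8, 30.7 and 27.0, and combination libraries 27.9, 22.7, 14.3 and 21.8. Exercise 2 to 4 and all antibody libraries lay above all controls, and combination 2 to 4 lay within or below the range of the controls. The additive expectation was 47.0 FPKM and the observed level 21.1. Acadl, a dehydrogenase of the same path, had -0.50 ± 0.13. The interaction of Cpt1a lay between -1.24 and -0.94 over the single omissions and had an adjusted p of 0.0227 without exercise 1.

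**Figure D3:**
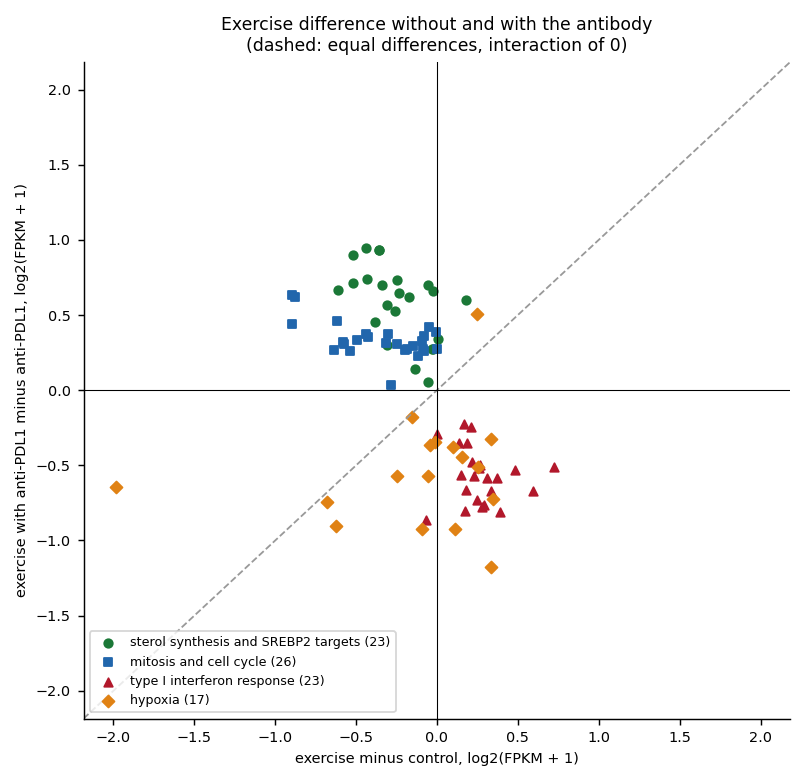
Exercise minus control (horizontal axis) and combination minus anti-PDL1 (vertical axis), in log2(FPKM + 1), for tested members of 4 lists, with the number of members in brackets. The axes share no library, and on the dashed line the differences are equal. Sterol and mitosis genes lie above the line and type I interferon genes below it.

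Mitosis genes were above 0 throughout their list. All 26 tested members had a positive interaction, from 0.28 to 1.53 with a median of 0.59, and 14 of them had an unadjusted p under 0.05, against 7.99% of all genes above 0. The exercise difference had a median of -0.29 without the antibody and 0.32 with it, and the antibody difference one of -0.56 without exercise and 0.10 with it. Group means of the list were 5.39 in controls, 5.04 in exercise, 4.84 in anti-PDL1 and 5.18 in the combination, in mean log2(FPKM + 1), so the combination mean lay between those of the single treatments and the controls. Without exercise 1 the median was 0.79 and 14 of 26 genes passed the adjusted threshold.

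Cell cycle promoters often carry CCAAT as well, and the letters TTTGAA, the cell cycle homology region that the DREAM complex binds. CCAAT stood in 17 of 20 mitosis windows (85%), against 41% of tested genes, and TTTGAA in 8 of 20 (40%), against 12.7% of tested genes and 18.3% of all. Of the other lists searched, type I interferon had CCAAT in 7 of 18 windows (38.9%) and hypoxia in 7 of 14 (50%). DNA replication had it in 12 of 22 (54.5%), fatty acid synthesis in 6 of 10 (60%) and interferon gamma in 9 of 15 (60%). The windows of 2 mitosis members are shown with CCAAT or ATTGG in capitals, Cenpe at chr3:135212313-135212562 and Kif11 at chr19:37376132-37376381, both on the plus strand.
Cenpe: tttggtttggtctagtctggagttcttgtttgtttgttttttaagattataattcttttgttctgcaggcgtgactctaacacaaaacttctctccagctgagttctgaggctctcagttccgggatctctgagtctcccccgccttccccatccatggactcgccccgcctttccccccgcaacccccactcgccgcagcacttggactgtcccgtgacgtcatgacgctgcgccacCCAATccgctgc
Kif11: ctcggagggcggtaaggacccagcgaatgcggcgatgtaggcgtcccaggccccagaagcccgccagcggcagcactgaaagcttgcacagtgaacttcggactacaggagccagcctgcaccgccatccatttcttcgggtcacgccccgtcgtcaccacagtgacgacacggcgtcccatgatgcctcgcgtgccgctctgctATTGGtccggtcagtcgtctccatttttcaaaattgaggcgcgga
The match begins 12 bases before the gene start in Cenpe and 45 bases before it in Kif11.

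Mki67, the gene of the proliferation marker Ki-67 (chr7:135689784-135716450), had the largest value of the list, 1.53 ± 0.41 with a 95% interval from 0.65 to 2.41. Controls held 64.7, 57.5, 51.9 and 42.8 FPKM, exercise libraries 63.9, 18.4, 17.4 and 31.1, antibody libraries 33.0, 33.3, 26.0 and 28.5, and combination libraries 42.0, 44.6, 49.3 and 53.5. All combination libraries lay above all antibody libraries and above exercise 2 to 4, and exercise 1 lay with the highest controls. The additive expectation was 15.7 FPKM and the observed level 47.2. Without exercise 1 the interaction was 1.91 (adjusted p of 0.00692).

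Cenpe, a kinetochore motor (chr3:135212563-135273540), followed the same order at lower levels. It held 21.4, 18.0, 16.6 and 13.2 FPKM in controls, 19.2, 5.90, 5.18 and 9.79 in exercise libraries, 9.92, 12.2, 7.28 and 9.74 in antibody libraries, and 12.7, 14.5, 17.4 and 17.4 in combination libraries. The combination did not overlap with the antibody group. Its interaction was 1.50 ± 0.41, and 1.85 without exercise 1 (adjusted p of 0.00928).

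Smc4, a condensin subunit that compacts chromosomes (chr3:69004738-69034623), held 90.6, 82.6, 82.4 and 69.7 FPKM in controls and 89.8, 29.4, 29.8 and 43.3 in exercise libraries. It held 56.2, 67.4, 45.0 and 67.5 in antibody libraries and 65.7, 79.7, 89.6 and 84.4 in combination libraries. Combination 1 lay within the antibody range and the others above it. The interaction was 1.34 ± 0.38, and 1.68 without exercise 1 (adjusted p of 0.00692).

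Further members were Kif11, the spindle motor (0.90 ± 0.27), Cenpf, a kinetochore protein (1.08 ± 0.31), Top2a, which untangles chromosomes (0.82), Bub1, a checkpoint kinase (0.89), and Nusap1, a spindle protein (0.78). Kif11, Cenpf, Top2a, Bub1 and Nusap1 each passed the adjusted threshold without exercise 1. Outside the list, Kif20b, a cytokinesis motor, had 1.24 ± 0.33 and Cip2a, an inhibitor of the phosphatase PP2A, 1.01 ± 0.26, both among the 12 smallest p-values above 0.

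DNA replication and nucleotide synthesis genes were also all above 0, 28 of 28, but with fewer small p-values. The median was 0.47, from 0.09 to 1.03, and 7 had an unadjusted p under 0.05, against 7.99% of all genes above 0. Pola1, the catalytic subunit of the polymerase that starts DNA strands, had 1.03 ± 0.30, Ccne2, a cyclin of S phase entry, 0.73 ± 0.29, and Tyms, thymidylate synthase, 0.66 ± 0.26. Pcna, the sliding clamp, had 0.57 and did not reach an unadjusted p of 0.05, and Mcm6, a subunit of the replicative helicase, had 0.10. Without exercise 1, 3 of 28 passed the adjusted threshold, Pola1 and Ccne2 among them.

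**Figure D4:**
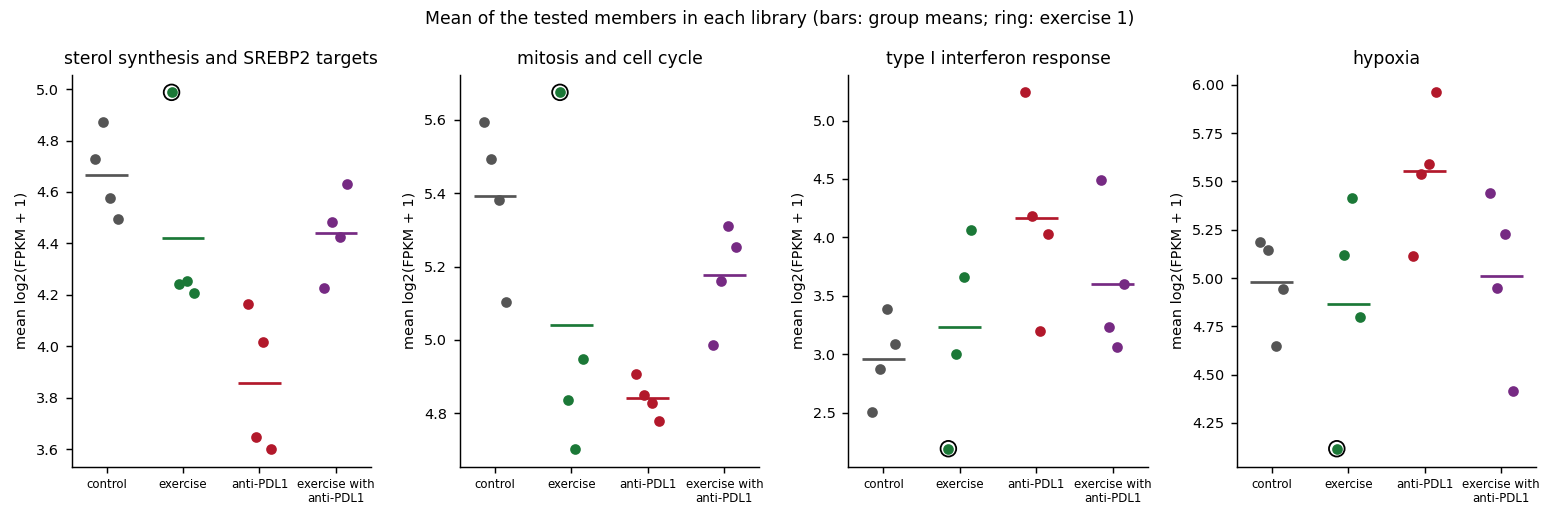
Mean log2(FPKM + 1) of the tested members of 4 lists in each library, with group means as bars, exercise 1 ringed and a separate vertical axis for each panel. For sterol genes exercise 1 is at 4.99 and the other exercise libraries lie between 4.21 and 4.25, and it is the highest library for mitosis and the lowest for type I interferon and hypoxia.

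Genes of RNA handling and nuclear transport had smaller positive interactions. Nuclear export and import receptors had 19 of 23 above 0 with a median of 0.25, and 9 had an unadjusted p under 0.05, all above 0, against 7.99% of all genes above 0. Xpo1, the main exporter of proteins, had 0.57 ± 0.17, Tnpo3, the importer of SR splicing factors, 0.64 ± 0.18, Ipo7, an importin, 0.66 ± 0.23, and Kpna2, an importin adaptor, 0.70 ± 0.26. Xpo1 means were 49.5 ± 0.851 FPKM (SD, n = 4) in controls, 33.3 ± 6.87 in exercise, 41.8 ± 3.24 in anti-PDL1 and 41.6 ± 5.91 in the combination, so that the combination lay at the level of the antibody group. Without exercise 1, Xpo1, Tnpo3 and Kpna2 passed the adjusted threshold.

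SR splicing factors had 16 of 18 above 0, a median of 0.22 and 6 with an unadjusted p under 0.05, all above 0, against 7.99% of all genes above 0. Tra2a, a splicing activator, had 0.65 ± 0.17, with means of 48.0 ± 2.63 FPKM (SD, n = 4) in controls, 30.6 ± 4.02 in exercise, 39.3 ± 6.62 in anti-PDL1 and 39.2 ± 4.15 in the combination. Srsf10 (0.55), Srsf3 (0.53) and Tra2b (0.40) followed, and Tra2a alone of the list passed without exercise 1. Among genes with a mean of at least 100 FPKM, Nop58, a core protein of ribosomal RNA methylation, had 1.07 ± 0.31, Luc7l3, a splicing protein, 0.97 ± 0.29, Eif2s2, a subunit of the initiation factor eIF2, 0.76 ± 0.20, and Cfdp1, a chromatin protein, 0.68 ± 0.17. Their additive expectations were 55.9, 64.3, 71.1 and 128 FPKM, and the observed levels 118, 127, 121 and 206.

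The oxidative phosphorylation, proteasome, ribosomal protein and ATF4 lists had more members above 0 than below, with medians from 0.06 to 0.33. Glycolysis, given with the hypoxia genes below, lay mostly below 0. Of all tested genes 54.9% lay above 0 as well, with a median of 0.03. Oxidative phosphorylation had 23 of 29 above 0 with a median of 0.09, between 0.07 and 0.15 over the single omissions, and 6 above 0 with an unadjusted p under 0.05, against 7.99% of all genes above 0. They were led by Ndufa4 (0.98 ± 0.31), a subunit of the respiratory chain, and Cycs (0.84 ± 0.27), cytochrome c. The constitutive proteasome had 23 of 27 above 0 with a median of 0.15, which was 0.07 without anti-PDL1 4, and Psmd14 had 0.48 and Psma1 0.45. Cytosolic ribosomal proteins had 23 of 36 above 0 with a median of 0.06, between -0.03 and 0.11 over the single omissions, and no member had an unadjusted p under 0.05. ATF4 targets and serine synthesis had 14 of 19 above 0 with a median of 0.33. Of these, 6 had an unadjusted p under 0.05, against 7.99% of all genes above 0, and no member below 0 did. This median was 0.20 without combination 1 and 0.21 without anti-PDL1 4. In that list Mthfd2, a mitochondrial folate enzyme, had 0.97 ± 0.36, Trib3, a pseudokinase of the stress response, 0.81 ± 0.30, Shmt2, which makes glycine from serine, 0.73 ± 0.28, and Asns, asparagine synthetase, 0.71 ± 0.27.

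Type I interferon genes were the mirror of the sterol list in sign, with wider spread between libraries. All 23 tested members of 25 lay below 0, from -1.26 to -0.30 with a median of -0.84, and 2 had an unadjusted p under 0.05, against 5.11% of all genes below 0. Median exercise differences were 0.25 without the antibody and -0.57 with it, and median antibody differences were 1.23 without exercise and 0.29 with it. Leaving out exercise 1 moved the median to -1.24 and leaving out anti-PDL1 1 moved it to -0.47, and no member was called in either fit. Mx1 and Mx2 are not analysed here.

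The interferon-stimulated response element was searched as GAAANNGAAA on either strand. It stood in 9 of 18 type I windows (50%) and 9 of 15 interferon gamma windows (60%), against 3.37% of tested genes and 3.46% of all. Bst2, whose values by library follow, is shown with the letters in capitals, at chr8:71537473-71537722 on the minus strand.
Bst2: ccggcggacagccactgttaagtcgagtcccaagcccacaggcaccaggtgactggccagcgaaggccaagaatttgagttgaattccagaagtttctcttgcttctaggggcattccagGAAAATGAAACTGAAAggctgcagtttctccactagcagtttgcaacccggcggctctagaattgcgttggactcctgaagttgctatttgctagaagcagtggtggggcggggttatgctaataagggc
The matches begin 130 and 124 bases before the gene start and overlap each other.

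Bst2, tetherin, holds budding virus at the cell surface and lies at chr8:71534255-71537472. Controls held 72.0, 56.6, 91.5 and 69.3 FPKM, exercise libraries 47.3, 85.4, 123 and 117, antibody libraries 292, 232, 124 and 196, and combination libraries 198, 114, 101.4 and 85.0. Antibody 3 and combination 1 made these groups overlap, and the combination covered the range of exercise 2 to 4. The interaction was -1.05 ± 0.46, with a 95% interval from -2.04 to -0.06, an additive expectation of 246 FPKM and an observed level of 118. Irf9, the DNA-binding subunit of the factor that reads type I signals, had -0.80 ± 0.31. Xaf1, a pro-apoptotic interferon target, had -1.26 ± 0.61 and Oas3, a sensor of double-stranded RNA, -1.20 ± 0.64, and their intervals included 0.

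Interferon gamma genes lay below 0 in 21 of 24 cases with a median of -0.65, and 1 had an unadjusted p under 0.05, against 5.11% of all genes below 0. The median was -0.35 without anti-PDL1 1, -0.39 without exercise 3 and -0.42 without combination 3. The gene under 0.05 was Gbp9, a guanylate-binding protein, at -1.13 ± 0.53. Irgm2 (-1.43 ± 0.73), Irgm1 (-0.94 ± 0.49) and Gbp2 (-0.74 ± 0.62), GTPases of cell-autonomous immunity, had wider intervals that included 0. Gbp2 means were 25.5 ± 8.88 FPKM (SD, n = 4) in controls, 32.3 ± 17.1 in exercise, 125 ± 61.4 in anti-PDL1 and 89.4 ± 41.5 in the combination. Cd274, the gene of PD-L1 itself, had -0.45 ± 0.42, with means of 4.74 ± 1.01, 4.16 ± 2.08, 11.8 ± 3.65 and 6.89 ± 2.34 FPKM in the same order.

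Antigen presentation by MHC class I lay below 0 in 19 of 21 cases with a median of -0.28, which was -0.15 without anti-PDL1 1 and -0.41 without anti-PDL1 3. An unadjusted p under 0.05 was reached by 3 of them, against 5.11% of all genes below 0, namely H2-T22 at -0.56 ± 0.23, Tapbp, the peptide-loading chaperone tapasin, at -0.48 ± 0.19 and H2-T24 at -0.74 ± 0.35. Tap1, the peptide transporter, had -0.57 ± 0.28. Psmb9, an immunoproteasome subunit (chr17:34182030-34187330), held 26.6, 14.1, 16.1 and 18.1 FPKM in controls, 14.99, 13.7, 23.8 and 14.3 in exercise libraries, 84.8, 52.8, 53.4 and 61.3 in antibody libraries, and 52.0, 46.0, 32.7 and 47.4 in combination libraries. All antibody-treated libraries lay above all others, and the combination lay below the lowest antibody library. Its interaction was nonetheless only -0.34 ± 0.30 with an interval from -0.98 to 0.31. MHC class II genes had 6 of 9 above 0 with a median of 0.16, and this sign reversed without controls 1 and 2 (-0.39), while single omissions moved it from -0.18 to 0.46.

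Markers of cytotoxic lymphocytes were mostly too low to test, 11 of 28 passing the filter. Of these 9 lay below 0, and the list median was -0.13, between -0.33 and -0.04 over the single omissions. Members ranged from -1.51 to 0.26, and those named here lie far below the median. An unadjusted p under 0.05 was reached by 1 member, against 5.11% of all genes below 0, namely Prf1, perforin, at -1.51 ± 0.67. Prf1 means were 1.58 ± 1.11 FPKM (SD, n = 4) in controls, 3.38 ± 1.54 in exercise, 9.14 ± 5.33 in anti-PDL1 and 5.41 ± 3.297 in the combination. Gzmb, a granzyme, had -0.97 ± 0.57, Nkg7, a granule protein, -0.70 ± 0.35, and Lag3, an inhibitory receptor, -0.99 ± 0.51.

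Hypoxia genes lay below 0 in 15 of 17 cases with a median of -0.48, and 3 had an unadjusted p under 0.05, all below 0, against 5.11% of all genes below 0. The median was -0.22 without exercise 3, -0.24 without combination 4 and -0.28 without anti-PDL1 4. Without the antibody the exercise difference had a median of -0.01, and with it -0.57. Car9, a carbonic anhydrase induced by HIF-1 (chr4:43507026-43513729), held 11.2, 15.01, 9.22 and 9.35 FPKM in controls, 5.67, 16.9, 28.4 and 14.0 in exercise libraries, 24.8, 28.9, 26.5 and 38.1 in antibody libraries, and 24.5, 12.7, 17.4 and 3.94 in combination libraries. The antibody group lay above all controls and all combination libraries, and exercise 3 lay within it. The interaction was -1.51 ± 0.65. Ndrg1, a stress gene, had -1.07 ± 0.47, P4ha1, a collagen prolyl hydroxylase, -0.77 ± 0.33, and Egln1, a HIF prolyl hydroxylase, -0.60 ± 0.30. No hypoxia gene passed without exercise 1, and glycolysis genes had 15 of 18 below 0 with a median of -0.18, between -0.29 and -0.05 over the single omissions, and none with an unadjusted p under 0.05.

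Matrix genes differed within their lists. Basement membrane genes had 9 of 13 below 0 with a median of -0.08, and 3 had an unadjusted p under 0.05, all below 0, against 5.11% of all genes below 0. Single omissions moved this median between -0.31 and -0.06, and without controls 1 and 2 it was -0.52. Lamc1, the laminin gamma chain of most basement membranes (chr1:153218922-153332786), held 44.1, 56.9, 45.4 and 66.8 FPKM in controls, 60.3, 98.7, 92.4 and 90.6 in exercise libraries, 62.9, 56.6, 64.3 and 72.2 in antibody libraries, and 66.2, 49.5, 54.9 and 53.0 in combination libraries. Exercise 2 to 4 lay above every other library, exercise 1 lay within the control range, and the remaining groups overlapped. The interaction was -0.86 ± 0.22, with an additive expectation of 102 FPKM and an observed level of 55.6. Hspg2, perlecan, had -0.64 ± 0.20, and Lamb2, a laminin beta chain, -0.42 ± 0.15. Lamc1 (adjusted p of 0.0201) and Hspg2 (0.0453) passed without exercise 1.

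Fibroblast and fibrillar matrix genes had 14 of 20 below 0 with a median of -0.38, which was -0.18 without combination 2 and -0.25 without exercise 2. Mmp2, a gelatinase, had -0.93 ± 0.31 and Pdgfra, a receptor of mesenchymal cells, -0.72 ± 0.32, the 2 members with an unadjusted p under 0.05, against 5.11% of all genes below 0. Mmp14, the membrane protease that activates pro-MMP2, had -0.74 ± 0.22 and an adjusted p of 0.0368 without exercise 1. Col6a3, a collagen VI chain, had -0.40 ± 0.20. Postn, periostin, went the other way at 1.27 ± 0.62, with a control mean of 99.97 ± 63.1 FPKM (SD, n = 4) against 35.8 ± 3.67 in exercise, and its interval included 0. Thbs2, a thrombospondin, had 0.24 ± 0.53.

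Lists of stress and hormone-responsive genes differed in sign. Glucocorticoid targets had 13 of 14 below 0 with a median of -0.38, led by Angptl4 (-1.15 ± 0.35), a lipase inhibitor that is also a PPAR and hypoxia target, which had an adjusted p of 0.0226 without exercise 1. Circadian clock genes had 11 of 15 below 0 with a median of -0.29, which was -0.09 without anti-PDL1 4 and -0.18 without combination 4. Per1, a repressor of the clock, had -1.13 ± 0.49. Immediate early genes had 13 of 22 below 0 with a median of -0.17, which was -0.04 without exercise 3. They included Dusp1 (-1.22 ± 0.54), a phosphatase of MAP kinases, and Fosl2 (-0.51 ± 0.18), an AP-1 subunit. Cytosolic heat shock proteins had 10 of 16 below 0 with a median of -0.18, including the chaperone partners Bag3 (-0.93 ± 0.33) and Hspb8 (-0.85 ± 0.33). In the interleukin 1 family, 8 of 13 lay below 0 with a median of -0.19. Il1rl1, the receptor of interleukin 33, had -1.41 ± 0.51 and Il1rn, the receptor antagonist, -0.95 ± 0.44. The highest members of these lists stood at 0.42, 0.51 and 1.17 in the same order. An unadjusted p under 0.05 was reached by 3, 2 and 2 members, all below 0, against 5.11% of all genes below 0. Endoplasmic reticulum chaperones (13 of 19) and NRF2 targets (14 of 20) lay mostly above 0, against 54.9% of all tested genes. Neither list had a member with an unadjusted p under 0.05, and chemokines were even (10 of 20 above 0).

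The genes with the smallest p-values came from several functions. Bpgm, which makes 2,3-bisphosphoglycerate (chr6:34476356-34505136), had the smallest of all, 0.00017, with an interaction of 0.74 ± 0.15. It held 8.94, 9.97, 10.4 and 8.15 FPKM in controls, 7.24, 6.96, 5.87 and 5.38 in exercise libraries, 6.57, 5.68, 6.35 and 7.57 in antibody libraries, and 7.38, 8.33, 8.45 and 7.46 in combination libraries. All controls lay above all libraries of either single treatment, and combination 2 and 3 lay within the control range. Exercise 1 lay with its own group here, and the interaction stayed between 0.67 and 0.80 over the single omissions. Bpgm is also a red cell gene, and it was the only 1 of the 6 tested red cell genes above 0, in a list with a median of -1.13. That median was -0.18 without anti-PDL1 4 and -1.85 without anti-PDL1 2, so it rests on these libraries.

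Lacc1, an oxidoreductase of macrophages and other cells (chr14:77021739-77036929), held 6.66, 8.78, 7.47 and 7.63 FPKM in controls and 6.03, 5.35, 5.27 and 5.20 in exercise libraries. It held 5.73, 6.12, 4.75 and 5.72 in antibody libraries and 5.76, 6.85, 6.69 and 7.71 in combination libraries. Controls lay above both single treatments and the combination reached from the one to the other, with an interaction of 0.65 ± 0.14. Bbip1, a component of the ciliary BBSome, had 0.61 ± 0.16.

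Below 0, Letm2, a protein of the mitochondrial inner membrane (chr8:25578478-25597989), had -0.72 ± 0.15 with an unadjusted p of 0.00018. It held 4.42, 3.87, 3.71 and 5.07 FPKM in controls, 5.94, 5.35, 5.77 and 6.55 in exercise libraries, 5.85, 5.55, 5.02 and 5.12 in antibody libraries, and 4.68, 4.45, 3.70 and 3.66 in combination libraries. Exercise libraries lay above all controls and all combination libraries, and the antibody libraries lay above the combination. Its value without exercise 1 was -0.71.

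Rnf31, the catalytic subunit of the linear ubiquitin ligase (chr14:55591713-55603674), held 8.25, 9.31, 9.23 and 9.14 FPKM in controls, 9.76, 11, 10.8 and 10.4 in exercise libraries, 14.9, 13.8, 12.9 and 14.4 in antibody libraries, and 12.9, 11.3, 9.87 and 10.5 in combination libraries. Controls, exercise and antibody libraries followed each other without overlap, and combination 3 and 4 lay within the exercise range, combination 2 just above it and combination 1 within the antibody range. The interaction was -0.51 ± 0.12, with an additive expectation of 16.2 FPKM and an observed level of 11.1. Lrig3, a membrane protein with leucine-rich repeats, had -0.68 ± 0.17, Elk4, a partner of serum response factor, -0.68 ± 0.19, Ces1a, a carboxylesterase, -1.47 ± 0.38, and Defb25, a beta-defensin, -0.80 ± 0.19. Cep295nl (-0.84 ± 0.22) and the entries LOC102638435 (-1.14 ± 0.30) and LOC108168962 (-1.11 ± 0.30) had group means under 3 FPKM.

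Markers of other cells moved with some of these results, and their part in them was not tested. Macrophage markers had 18 of 20 above 0 with a median of 0.62, and their summed FPKM ranged from 636 to 2748 in controls, from 886 to 1540 in exercise, from 471 to 1061 in anti-PDL1 and from 545 to 1756 in the combination. That median was 0.31 without control 2, 0.37 without combination 4, 0.98 without control 3 and -0.09 without controls 1 and 2, so it rests on these libraries. Ccr2, the receptor of inflammatory monocytes, had 1.79 ± 0.74, and Mrc1, the mannose receptor, 1.41 ± 0.74, Ly86, an accessory protein of innate receptors, 1.21 ± 0.70 and Adgre1, the gene of F4/80, 0.65 ± 0.57. Cd14 went the other way at -0.55, the lowest of the list and 1 of the 2 members below 0. Without the same controls the sterol and mitosis medians were 0.67 and 0.41, against 0.84 and 0.59 with all libraries. Whether cell composition had a part in them was not tested.

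Endothelial and pericyte markers had 10 of 16 above 0 with a median of 0.26, against 54.9% of all tested genes above 0. Complement genes had 12 of 15 with a median of 0.37. Without control 2 these medians were -0.08 and 0.08, without control 3 they were 0.42 and 0.68, and without controls 1 and 2 they were -0.34 and -0.24. Neutrophil markers were even (5 of 10 above 0), and Mmp8, a neutrophil collagenase, had -0.54 ± 0.40. All 5 tested muscle genes of 18 lay above 0 with a median of 0.92, and without control 2 it was -0.14, while summed muscle FPKM ranged from 5.13 to 478 in controls and from 3.63 to 23.4 in the other groups. Red cell genes summed to between 83.8 and 4082 FPKM in anti-PDL1 and to between 76.3 and 799.8 in the other groups, and Hbb-bs, a beta globin, had -1.66 ± 1.36. Of the keratinocyte and epithelium list 4 of 16 genes were tested, and Krt14, a basal keratin, had -1.26 ± 0.57. Only 3 of 10 dendritic cell genes, 2 of 10 adipocyte genes and 0 of 9 B cell genes passed the filter. Ctxn1, a membrane protein gene that was lower with the antibody by -0.99 without exercise and by -0.79 with it, had an interaction of 0.19 ± 0.17.

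**Figure D5:**
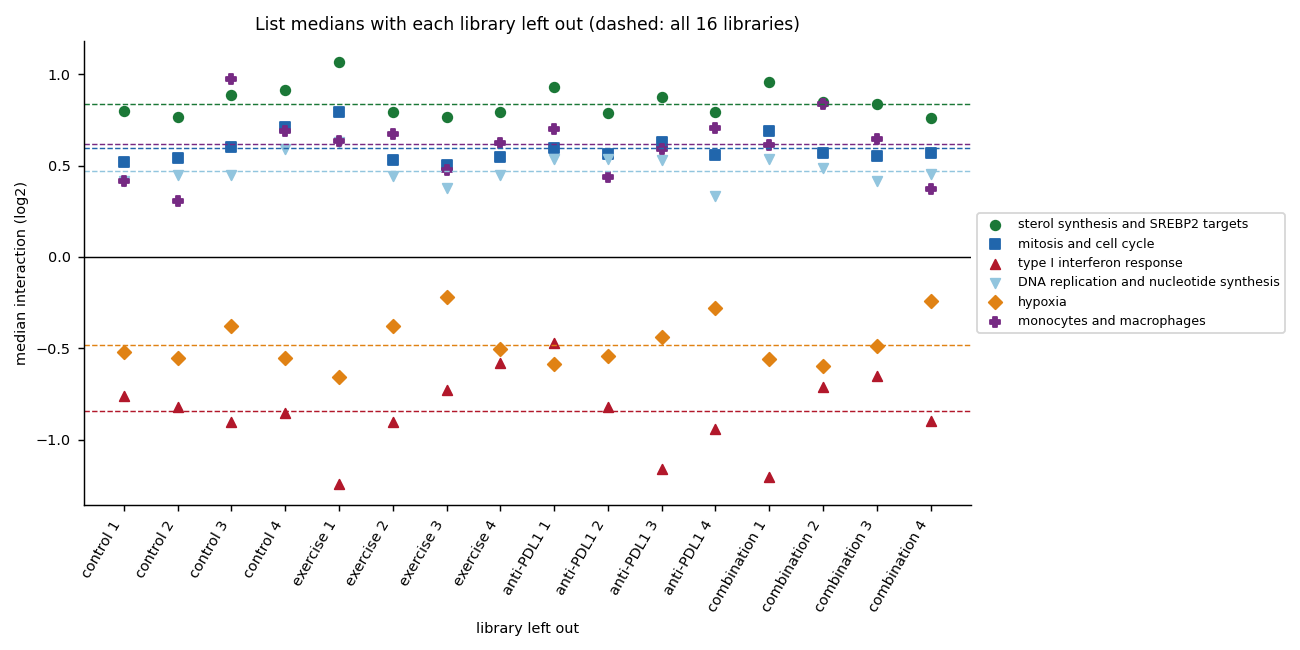
Median interaction (log2, vertical axis) of 6 lists when each library named on the horizontal axis is left out, with dashed lines at the value of all 16 libraries and combination meaning exercise with anti-PDL1. Sterol medians stay between 0.76 and 1.07, mitosis between 0.51 and 0.79 and type I interferon between -1.24 and -0.47.

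The plot of list medians by omitted library shows how far each rests on 1 library. Exercise 1 was the omission that moved the sterol, mitosis, replication, type I interferon and hypoxia medians furthest from 0, whereas leaving out exercise 3 brought the hypoxia median closest to 0. Without both exercise 1 and control 4, the mitosis and replication medians were 0.91 and 0.75. DNA replication was lowest, at 0.33, without anti-PDL1 4. Members of gene families and genes with near-identical copies, among them H2-T22, H2-T24, Gbp2, Gbp9, Irgm1, Irgm2, Ces1a, Defb25, Hbb-bs and Fdps, are uncertain where reads could be shared between copies, and strand was not stated.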

How the data were processed

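The authors deposited FPKM per entry and library, 18480 entries in each of 16 libraries. Per the submitters' processing notes, the tools included HISAT and Bowtie2 on GRCm38.p6, without role, and the library kit is not given in the sources used here. Without counts the depth is unknown. Library sums lay from 478672 to 529732 FPKM, with 11293 to 11873 entries at 1 FPKM or more.

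The test ran on log2(FPKM + 1), with a pseudocount of 1. The 11868 entries that reached 1 FPKM in 4 or more libraries were fitted in R 4.3.3 with limma 3.58.1, using trend and robust empirical Bayes, on 4 group means. P-values of the interaction were adjusted by the Benjamini-Hochberg method over all tested entries, at a threshold of 0.05, and the script was tested on simulated data. Coordinates and promoters are from RefSeq on GRCm38.p6, where 17960 entries matched by symbol. No 2 libraries held identical values.

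The members of the contrast, the 37 gene lists and the tests were chosen with earlier results of these data known. Named genes were the 12 smallest p-values in each direction, a fixed panel, the 4 members of each list whose p was smallest and the 6 smallest p-values among genes with a mean of at least 100 FPKM. Not every gene so picked is described, some genes are not reported here, and Fdps, Stard4, Ebp, Srebf2, Fasn, Acaca, Srebf1, Top2a, Bub1, Nusap1, Pcna and Mcm6 were added after their values were seen. The 29 alternative fits changed the pseudocount, scale, filter, variance model, scaling, replicate term or libraries.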

Additional observations from a re-analysis of the deposited data

Results flagged for a closer look

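Within each group of 4 libraries, the highest or lowest was marked where its gap to the next, as a share of the group's range, exceeded Dixon's 95% value. Of 108 groups checked, over the genes printed library by library and the means of 10 lists, 13 were marked, and chance marks about 1 in 20. Of these, 7 were exercise 1 in lipid genes: Hmgcs1 at 88.96 FPKM (others 32.72 to 38.61), Sqle at 64.15 (29.5 to 31.72), Cyp51 at 42.22 (24.27 to 25.54), Elovl6 at 13.07 (5.7 to 6.06), Idi1 at 9.36 (3.83 to 4.63), the sterol list mean at 4.99 on the log2 scale (4.21 to 4.25) and the fatty acid synthesis list mean at 4.81 (4.53 to 4.57). These genes share a pathway and a library and are not independent.

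Control libraries were marked for Idi1 in control 4 (4.22 FPKM against 9.22 to 9.6), Rnf31 in control 1 (8.25 against 9.14 to 9.31) and the MHC class I mean of control 1 (5.28 against 4.87 to 4.92). Psmb9 in exercise 3 stood at 23.82 FPKM against 13.68 to 14.99. The DNA replication mean of anti-PDL1 4 was 4.12 against 4.67 to 4.78, and the basement membrane mean of combination 2 was 4.24 against 4.48 to 4.50.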

How the results depend on the processing

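Calls depended on the libraries. The count of genes past the adjusted threshold was 0 in each direction in 27 of the 29 alternative fits. Over the omission of single libraries it ranged from 0 to 195 above 0 and from 0 to 28 below 0, with all calls in the fit without exercise 1. An alternative added after seeing the data, without exercise 1 and control 4, gave 446 above 0 and 213 below 0, with 1836 and 1261 at an unadjusted p under 0.05. Unadjusted counts ranged over the single omissions from 566 to 1614 above 0 and from 376 to 983 below 0. With library weights they were 1751 and 1345, and without controls 1 and 2 they were 510 and 258. The cause was not tested.

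Of 3411 values of the 118 named genes, 3291 kept direction and side of the threshold, 113 passed it (46 genes without exercise 1 and 67 without exercise 1 and control 4) and 7 changed sign. Those were Thbs2 (from -0.0849 to 0.49 over single omissions, and -0.33 without controls 1 and 2), Adgre1 (-0.12) and Ebp (-0.0748) without the same controls, Ctxn1 on untransformed FPKM (-0.758) and Mcm6 without anti-PDL1 4 (-0.0486, the lowest single omission, with 0.17 the highest).

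With the replicate number as a block, 0 genes passed in either direction and 955 and 515 had an unadjusted p under 0.05 above and below 0. The numbers share no stated origin, and the deviations of same-numbered libraries correlated between -0.62 and 0.344, 6 of 24 pairs above 0.1, with 1 of 16 libraries best matched to its own number, so they were not taken as pairs.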
